A study of Homo sapiens with 6 samples.

Results

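The genes of the MYC, MAX and MXD network were measured in BCPAP cells, an established line of papillary thyroid cancer. The shCSF2 cells had been transduced with a lentivirus that encodes a short hairpin RNA against CSF2, which codes for the cytokine GM-CSF. The shCtrl cells had received a control hairpin. The labels give neither the number of hairpins nor their sequences. Both groups were put under puromycin 48 hours after transduction and were selected for 7 days, and each gave 3 arrays that the labels call biological replicates. The members were all probe sets annotated with a single gene symbol among 10 network genes. They numbered 44 of the 49395 probe sets on the Affymetrix PrimeView array. The genes were MYC and MYCL, MAX, MXD1, MXI1, MXD4 and MNT, MLX and MLXIP, and FBXW7. They were listed with results of this same comparison known, among them the rise of MYC. Their differences are therefore given as a description, with their calls set beside the background of all genes and used to support nothing.

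MYC is a basic helix-loop-helix leucine zipper transcription factor that binds DNA as a pair with MAX, mostly at the E-box CACGTG, and drives genes of ribosome production, nucleotide synthesis and growth. MXD1, MXI1, MXD4 and MNT pair with the same MAX and recruit the SIN3 and histone deacetylase corepressor to the same sites, so MAX is the hub that activators and repressors share. MLX is a second hub, which pairs with the nutrient sensor MLXIP (MondoA) and with some MXD proteins. FBXW7 is the substrate receptor of a ubiquitin ligase that marks phosphorylated MYC for destruction.

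Of the member genes, 3 had the E-box in the windows of RefSeq promoter sequence that were searched, which ran from 250 bases before to 50 bases after each gene start (GRCh38.p14). The E-box reads the same on both strands. These 3 genes are shown because network proteins bind this motif. Beside them are 2 genes that MYC is known to activate, the ribosome-assembly gene UTP20 and the glutamine transporter gene SLC1A5. These 2 were chosen among listed genes that were called higher here and held the motif, so its presence in them was fixed by the choice. Each stretch is written 5′ to 3′ along the gene's strand, with the E-box in capitals.
MXD4 (chr4:2262325-2262359, minus strand): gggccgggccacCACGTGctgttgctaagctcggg
MLX (chr17:42567033-42567072, plus strand): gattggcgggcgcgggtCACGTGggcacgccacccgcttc
MNT (chr17:2401231-2401270, minus strand): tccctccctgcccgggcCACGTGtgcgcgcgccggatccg
UTP20 (chr12:101280078-101280117, plus strand): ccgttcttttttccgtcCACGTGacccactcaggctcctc
SLC1A5 (chr19:46787321-46787360, minus strand): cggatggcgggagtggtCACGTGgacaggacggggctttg
The windows of 9 member genes were searched, 15 in all, and 3 held the motif, against 7.26% of all 35116 promoter windows. MYC had 0 windows in the promoter sequences, so its promoter was not searched. A match describes the letters only.

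The medians of the 6 arrays were 5.77 to 5.79 (log2). Across probe sets, arrays of 1 group correlated with r = 0.998 and arrays of different groups with r = 0.994, and 0 pairs of arrays were identical. The difference between the 3′ and 5′ control probe sets of actin, a measure of RNA integrity, was 0.57 to 0.66 in shCSF2 and 0.54 to 0.63 in shCtrl arrays. That of GAPDH was -0.019 to 0.0021 in shCSF2 and -0.049 to -0.026 in shCtrl arrays, a small gap in which the groups did not overlap, and its part in the results was not tested. Of the thyroid markers, the transcription factor genes NKX2-1 and PAX8 were well measured (mean log2 value 9.37 and 8.07 in shCSF2 cells, 9.78 and 8.11 in shCtrl cells), whereas DIO1, DIO2 and TSHR had means over all 6 arrays below 4.20, the lower quartile of the array where it was highest. Of 9 thyroid markers, NKX2-1 was called lower, as was the keratin gene KRT8 of 6 epithelial markers (-0.26 ± 0.05), whose part in the results below was not tested. Of the other epithelial markers, CDH1 and KRT19 had means below 4.20. KRT18 had a difference of 0.08 ± 0.04 with all shCSF2 arrays above, and was not called. No leukocyte, fibroblast or endothelial marker passed the test (0 of 5, 0 of 4 and 0 of 4 measured), and 3 leukocyte and 2 fibroblast markers had means below 4.20. The leukocyte marker CD68 (mean 6.95) and the endothelial markers CDH5, PECAM1 and KDR (6.05 to 6.55) lay above the array medians. The thyroid markers TG and SLC5A5 had lower means, 4.59 and 4.62. CSF2 was not analysed here, and knockdown was therefore taken from the labels alone. Precision is limited by having 3 arrays a group.

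MYC was the member with the largest difference, 1.66-fold higher in shCSF2 cells, and MAX was 1.16-fold higher at its most expressed probe set. Of 12 MAX probe sets, 7 were called higher and 1 lower. The repressor genes MXI1, MXD4 and MXD1 and the second hub gene MLX were lower, by 1.26-fold, 1.23-fold, 1.22-fold and 1.22-fold at each gene's most expressed probe set. The second MXD1 probe set was higher, so its direction is not settled. MYCL, MNT, MLXIP and FBXW7 did not pass. By limma over 18132 genes at an adjusted p of 0.05, 2 members were called higher and 4 lower. The background was 32.7% of all genes called, 16.7% higher and 16% lower. The arrays of the 2 groups did not overlap in the same 6 members, 2 with shCSF2 above and 4 with shCSF2 below. Among all genes, 46.7% did not overlap, 22.1% with shCSF2 above and 24.6% below. In the fit on genes at or above the median expression, 3097 genes were called higher and 2701 lower. That is about as many as the 3037 and 2893 called among all 18132 genes. The 32.7% therefore understates the share called among well-expressed genes, to which most members belong. In that fit 2 members were called higher and 3 lower. In RNA from whole cultures, a change in the cells present and a change in RNA per cell cannot be told apart.

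**Figure D1:**
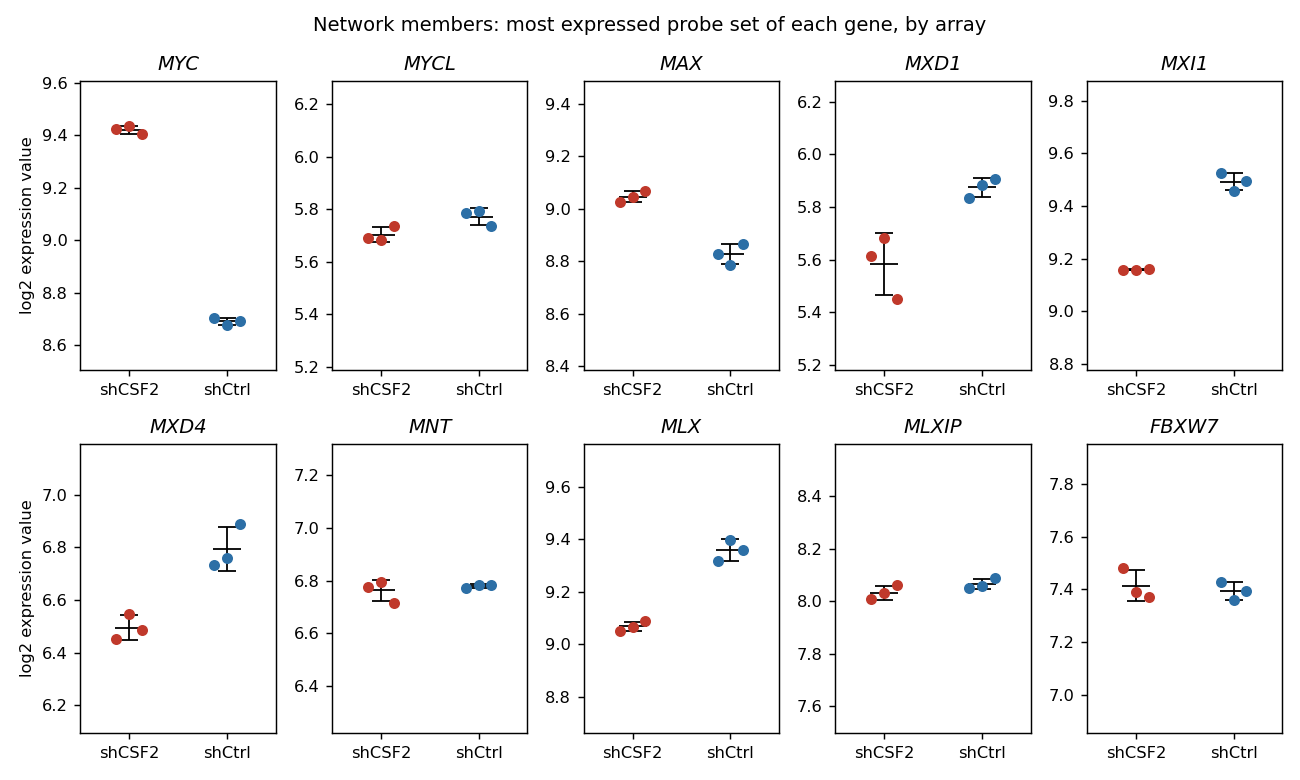
Log2 expression value of each member's most expressed probe set in every array, with shCSF2 at the left and shCtrl at the right of each panel. Points are arrays, the bar is the mean and its whiskers the SD (n = 3), and all panels span the same height on the log2 scale. MYC shows the widest gap between groups, and MYCL, MNT, MLXIP and FBXW7 overlap.

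MYC, the central activator, was measured by 1 probe set. Its log2 values were 9.42, 9.43 and 9.41 in the 3 shCSF2 arrays, against 8.71, 8.68 and 8.69 in the 3 shCtrl arrays. All shCSF2 arrays were above all shCtrl arrays, and the gap was far wider than the spread within either group (SD 0.015 and 0.014). The log2 difference was 0.73 ± 0.03 (SE, n = 3 per group), which ranked 120 among the 18132 genes ordered from the largest rise down. It lay between 0.71 and 0.74 in the 16 alternative fits. MYCL, the relative of MYC first found in lung cancer, did not pass. Its 4 probe sets had differences of -0.20 to 0.03 and none was called. At the most expressed one the arrays ran from 5.69 to 5.74 in shCSF2 and from 5.74 to 5.79 in shCtrl cells, so the groups met at one end. The MYCL probe sets had mean log2 values of 2.81 to 5.74, and 2 of the 4 lay below the lower quartile of the arrays.

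MAX, the partner that both activators and repressors need, was read by 12 probe sets that did not all move together. At the most expressed one the log2 values were 9.03, 9.04 and 9.07 in shCSF2 arrays, against 8.83, 8.79 and 8.86 in shCtrl arrays. The groups did not overlap, and the difference was 0.22 ± 0.04. Of the 8 MAX probe sets with a mean log2 value of at least 5, 7 were called higher, with differences of 0.16 to 0.29, and the remaining one had a difference of 0.04. The 4 MAX probe sets with a mean under 5 behaved otherwise. None of these was called higher, and one was called lower by -0.35 ± 0.04 (mean 4.25 ± 0.01 in the shCSF2 and 4.60 ± 0.06 in the shCtrl group, SD, n = 3). When all 12 were averaged, MAX had a difference of 0.08 and no longer passed, and its most variable probe set was the one that fell, which had a mean of 4.42. MAX has many annotated transcripts, and which of them each probe set reads was not determined here. Probe sets of one gene can read overlapping stretches of its transcripts, so they are not independent measurements.

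**Figure D2:**
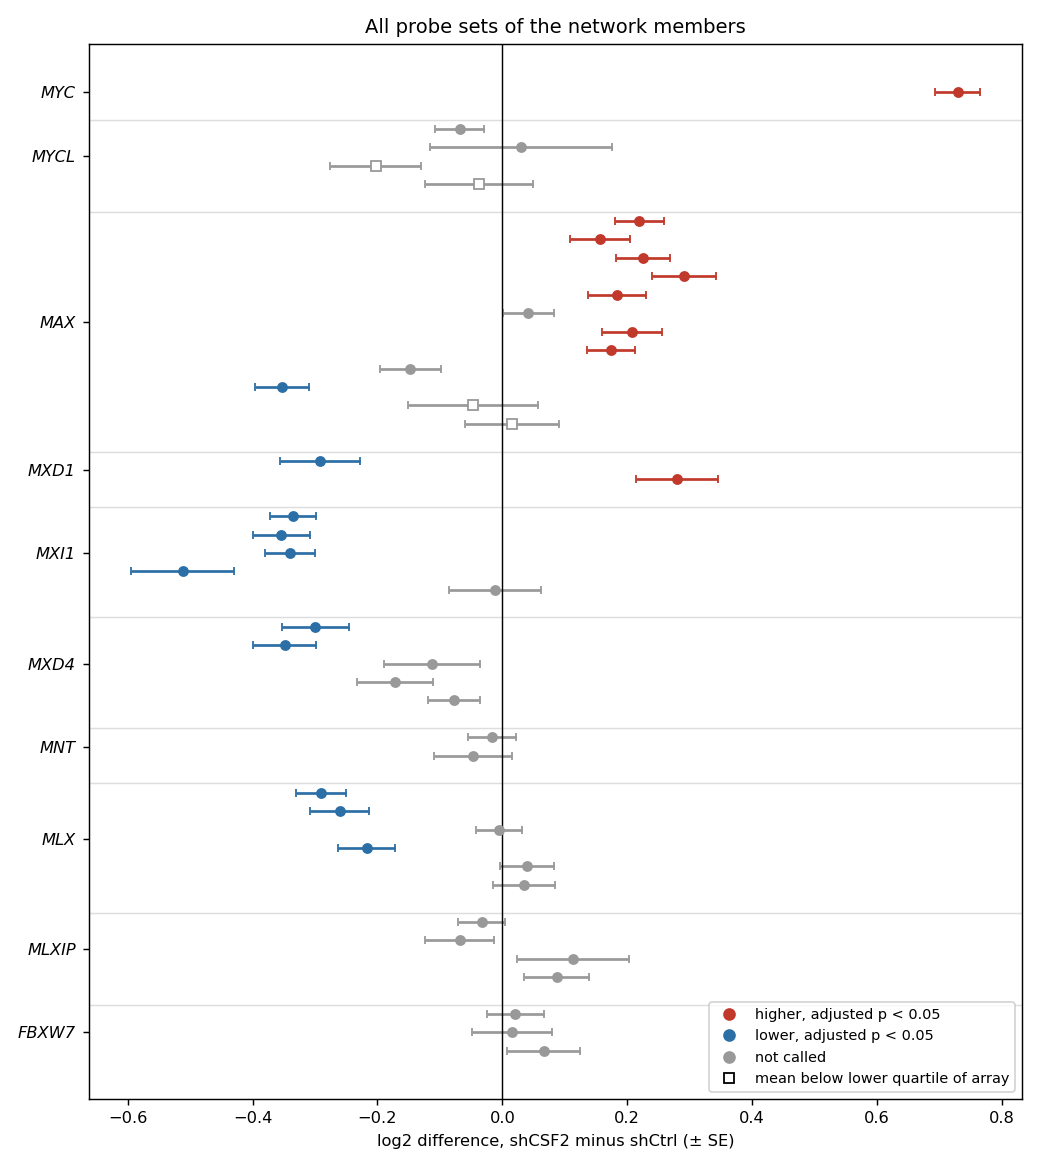
Log2 difference (shCSF2 minus shCtrl, bars ± SE) of all 44 probe sets, grouped by gene and ordered within a gene from the highest mean value at the top. Red and blue mark probe sets called higher and lower at an adjusted p of 0.05, grey those not called, and open squares those with a mean below 4.20. The 4 called MXI1 probe sets lie to the left of 0, the bright MAX probe sets lie to the right, and the 2 MXD1 probe sets lie on opposite sides of 0.

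MXI1, a repressor of the MXD family that competes with MYC for MAX, was the member with the largest fall. Its log2 values were 9.16, 9.16 and 9.16 in shCSF2 arrays, against 9.52, 9.46 and 9.50 in shCtrl arrays. The shCSF2 arrays were almost identical and all lay below the shCtrl arrays, with a difference of -0.34 ± 0.03. Of its 5 probe sets, 4 were called lower, by -0.34 to -0.51, and the fifth, with a mean of 4.93, had a difference of -0.01. MXI1 passed in all 16 alternative fits.

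MXD4, another repressor of this family, which is common in differentiating cells, was also lower. The values of its most expressed probe set were 6.45, 6.55 and 6.48 in shCSF2 arrays, against 6.73, 6.76 and 6.89 in shCtrl arrays. The groups did not overlap and the difference was -0.30 ± 0.05. All 5 MXD4 probe sets had differences below 0, from -0.08 to -0.35, and 2 were called. MXD4 was lower and passed in all 16 alternative fits.

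MXD1, a repressor that rises when many cell types differentiate, gave no settled direction. Its most expressed probe set read 5.61, 5.68 and 5.45 in shCSF2 arrays, against 5.83, 5.88 and 5.91 in shCtrl arrays, a difference of -0.29 ± 0.06. Its other probe set read 4.44, 4.59 and 4.61 in shCSF2 arrays, against 4.36, 4.24 and 4.19 in shCtrl arrays, a difference of 0.28 ± 0.07. Both were called, in opposite directions, and in neither did the groups overlap. The mean of both had a difference of -0.01 and did not pass.

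MNT, a widely expressed repressor partner of MAX, read 6.72 to 6.79 in shCSF2 and 6.77 to 6.78 in shCtrl arrays at its most expressed probe set. The groups overlapped, with a difference of -0.02 ± 0.04, and neither of its 2 probe sets was called (differences of -0.02 and -0.05).

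MLX, the hub of the nutrient-sensing branch, read 9.05, 9.07 and 9.09 in shCSF2 arrays, against 9.32, 9.40 and 9.36 in shCtrl arrays. All shCSF2 arrays were lower, with a difference of -0.29 ± 0.04. Its probe sets split, since 3 of 6 were called lower, by -0.22 to -0.29, and the other 3 had differences of -0.01 to 0.04. One of the uncalled ones was bright, with a mean log2 value of 8.59. With all 6 averaged, the MLX difference was -0.12 and still passed. Its partner gene MLXIP read 8.01 to 8.06 in shCSF2 and 8.05 to 8.09 in shCtrl arrays. The groups overlapped, with a difference of -0.03 ± 0.03, and 0 of 4 MLXIP probe sets were called.

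FBXW7, the ubiquitin ligase subunit that binds phosphorylated MYC, read 7.37 to 7.48 in shCSF2 and 7.36 to 7.43 in shCtrl arrays. The groups overlapped, with a difference of 0.02 ± 0.04, and 0 of its 3 probe sets were called.

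Across all 44 probe sets, 9 were called higher and 11 lower in the fit over 49293 probe sets, where 29.1% of all probe sets were called, 15.3% higher and 13.8% lower. These shares include dim probe sets, and a share among probe sets of like expression is not given here. The groups did not overlap in 10 with shCSF2 above and 13 with shCSF2 below, against 21.3% and 22.5% of all probe sets (43.8% in all). The count of higher probe sets was smaller whichever array was left out, at 5 to 8, with 5 without shCSF2 replicate 3, and it was 6 with the replicate number as a block. Of the 9 higher probe sets, 7 belonged to MAX, 1 to MYC and 1 to MXD1. The 11 lower ones were 4 of MXI1, 3 of MLX, 2 of MXD4, 1 of MXD1 and 1 of MAX. The median difference of the 44 was -0.02, the same as the median of all probe sets.

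The genes whose values over the 6 arrays ran closest to MYC, after each gene was centred on its own mean, were TXNL4B, the necroptosis effector gene MLKL, the cytokine gene IL1B, the mitochondrial gene MAIP1 and IMP3, a component of the ribosomal RNA-processing machinery. Their Euclidean distances to MYC were 0.027 to 0.053 log2 units over 6 arrays, out of 9802 genes with a mean log2 value of at least 6, and their differences were 0.72 to 0.75. The genes closest to MXI1 were the recycling GTPase gene RAB11B, the translation inhibitor gene EIF4EBP2, the helix-loop-helix gene TCF4, the metalloprotease gene ADAM19 and the guanylate-binding gene GBP3, at distances of 0.013 to 0.042. Their differences were -0.31 to -0.35. The distance counts the size of the group difference as well as the shape of the profile, and the 6 arrays come from 2 groups only.

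**Figure D3:**
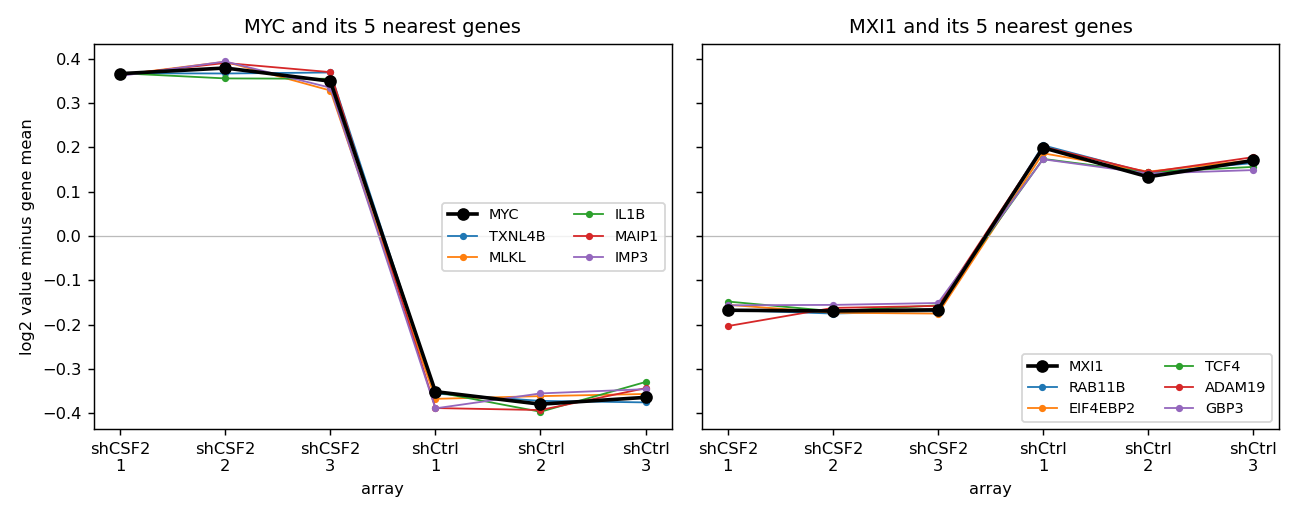
Log2 value minus the gene's mean in each of the 6 arrays for MYC (left) and MXI1 (right), in black, and for the 5 genes nearest to each. The MYC group steps down between the shCSF2 and the shCtrl arrays, and the MXI1 group steps up.

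RRP12, NIP7, NOP56 and PUS1 had the largest differences among genes that MYC is known to activate. Of 47 measured genes of this list, 24 rose and 3 fell, against 16.7% and 16% of all genes, and the list's median difference was 0.18 against -0.03 for all genes. None of the 47 had a mean below 4.20, and calls were commoner among well-expressed genes, as given above. The shares of all genes are therefore a low yardstick for this list and those below. In the fit on genes at or above the median expression, 29 of this list were called higher and 5 lower. RRP12, which helps export ribosomal subunits, read 9.63, 9.62 and 9.64 in shCSF2 arrays, against 8.99, 8.96 and 8.99 in shCtrl arrays. Its difference was 0.65 ± 0.03. NIP7, which acts in ribosomal RNA processing, read 9.58, 9.63 and 9.61 in shCSF2 arrays, against 8.99, 8.98 and 9.01 in shCtrl arrays, a difference of 0.61 ± 0.03. In both genes all shCSF2 arrays were higher and every probe set was called higher. NOP56, a core protein of the small nucleolar particles that methylate ribosomal RNA, rose by 0.53 ± 0.04, and PUS1, a pseudouridine synthase, by 0.53 ± 0.04. All 3 called lower at their most expressed probe set are named here, a choice made with their values known. They were the nucleolar methylase gene FBL (-0.22 ± 0.04), the mitochondrial peroxidase gene PRDX3 (-0.20 ± 0.04) and the prohibitin gene PHB1 (-0.16 ± 0.04). Some genes not called had other probe sets that were, and 1 in each direction was chosen with its values known. SHMT1 (-0.19 ± 0.09) had 4 of 5 probe sets called lower, and EIF4A1 (0.08 ± 0.05) had 3 of 4 called higher. The rises also included, chosen in the same way, UTP20 (0.49 ± 0.06, 1 probe set) and SLC1A5 (0.51 ± 0.05), whose E-boxes are shown above. The E-box was in 42.3% of 26 promoter windows of the listed genes called higher and in 37% of 27 windows of those not called higher. Some genes had several windows. By gene, 11 of 18 called higher and 10 of 21 not called higher held the motif. RRP12 and PUS1 had 0 windows, so their promoters were not searched.

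Genes that MYC is known to repress moved in both directions. Of 15 measured, 6 fell (40%) and 3 rose (20%), against 16% and 16.7% of all genes, with a median difference of -0.10. The cell cycle inhibitor gene CDKN1C read 8.51, 8.55 and 8.49 in shCSF2 arrays, against 9.28, 9.47 and 9.42 in shCtrl arrays. All shCSF2 arrays were lower, with a difference of -0.87 ± 0.06, and all 3 CDKN1C probe sets were called lower. The related inhibitor gene CDKN1B fell by 0.37 on the log2 scale (SE 0.04), with both probe sets called. The stress-induced gene NDRG1 (0.49 ± 0.03) and the growth arrest gene GADD45A (0.40 ± 0.03) rose, as did GADD45B (0.20 ± 0.04), chosen after its value was seen.

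Genes known to be driven by MLXIP and MLX, or by their close relatives, were higher in most cases. Of 10 measured, 7 rose (70%) and 0 fell, against 16.7% and 16% of all genes. The list's median difference was 0.24, against -0.03 for all genes. The arrestin-like gene ARRDC3 rose by 0.79 ± 0.03, KLF10, a transcription factor gene, by 0.69 ± 0.04, the fatty acid desaturase gene SCD by 0.45 ± 0.03 and the glycolysis regulator gene PFKFB3 by 0.42 ± 0.04. TXNIP, a well-known MondoA target whose product restrains glucose uptake, was added with its values known. It read 9.20, 9.19 and 9.22 in shCSF2 arrays, against 8.92, 8.92 and 9.02 in shCtrl arrays, a difference of 0.25 ± 0.04. Of the 4 probe sets of SCD and of PFKFB3, 1 each was called. HK2, the hexokinase gene, named with its values known, belongs to this list and to the MYC-activated one and rose by 0.20 ± 0.04.

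FBXO28, USP37 and CUL1 rose most among genes that control the stability or ubiquitination of the MYC protein. Of 20 measured, 8 rose (40%) and 2 fell (10%), against 16.7% and 16% of all genes, with a median difference of 0.07. In the fit on genes at or above the median expression, where calls were commoner, 8 were called higher and 4 lower. FBXO28, an F-box gene whose product ubiquitinates MYC, read 8.81, 8.81 and 8.78 in shCSF2 arrays, against 7.92, 7.93 and 7.97 in shCtrl arrays. Its difference was 0.86 ± 0.03, and all 4 FBXO28 probe sets were called higher. The deubiquitinase gene USP37 rose by 0.61 ± 0.05, and CUL1, the cullin scaffold on which FBXW7 works, by 0.52 ± 0.03. SKP2, another F-box gene that acts on MYC, was lower at -0.44 ± 0.04, with 1 of its 2 probe sets called. The phosphatase subunit gene PPP2R5A, the other that fell, was chosen after its value was seen (-0.20 ± 0.04). Of 15 measured genes whose proteins FBXW7 targets, 6 rose (40%) and 2 fell (13.3%), against 16.7% and 16% of all genes. Their median difference was -0.02. KLF2 (0.77 ± 0.04), a Krüppel-like factor gene, the cyclin gene CCNE2 (0.69 ± 0.07), the proteasome regulator gene NFE2L1 (0.36 ± 0.03) and the survival gene MCL1 (0.34 ± 0.03) rose most, and the kinase gene MTOR (-0.30 ± 0.04) and the cyclin gene CCNE1 (-0.16 ± 0.05), chosen after their values were seen, fell. AURKA, named with its values known, is in this list and in the one on MYC turnover and was not called. These are transcript levels, and protein turnover was not measured.

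**Figure D4:**
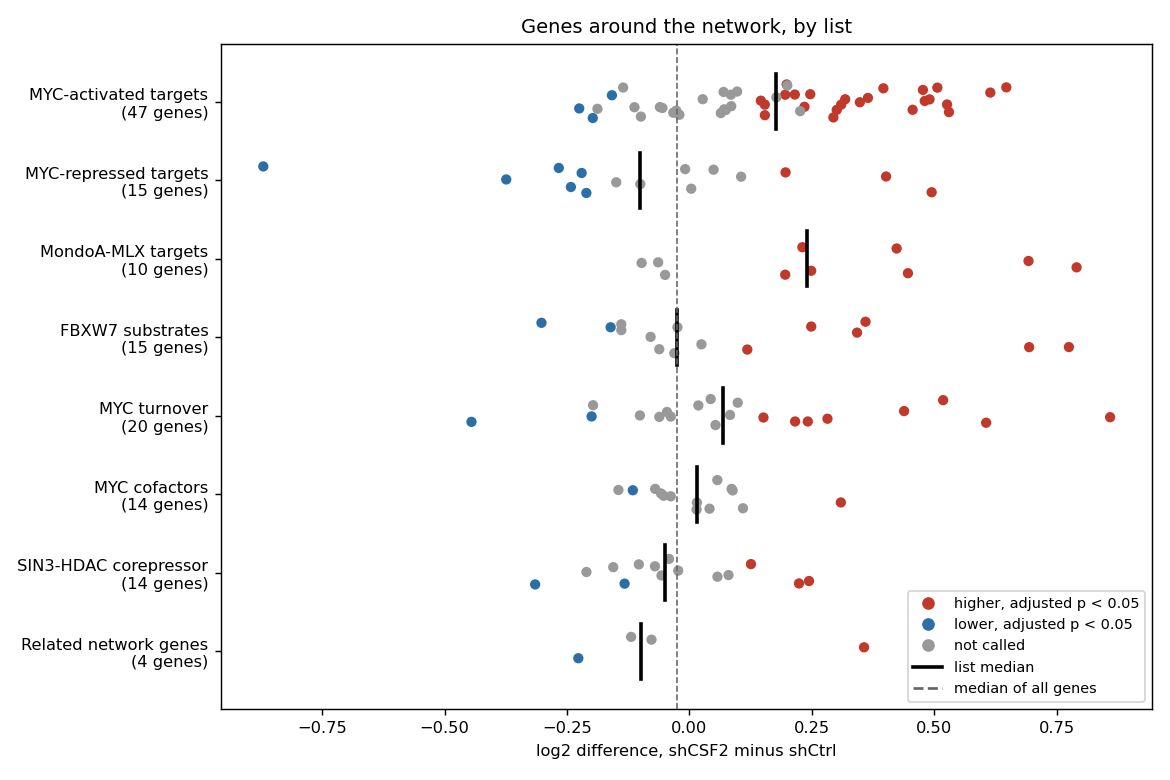
Log2 difference (shCSF2 minus shCtrl) of each measured gene of 8 lists around the network, by its most expressed probe set. Red and blue points were called higher and lower at an adjusted p of 0.05, grey points were not called, black bars are list medians and the dashed line is the median of all genes at -0.03. The MYC-activated list has its median at 0.18 and the list driven by MLXIP and MLX at 0.24.

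MYCBP2 and MGA rose, and RBBP4 fell, among the partners and cofactors of the 2 arms. Of 14 measured MYC cofactor genes, 1 rose and 1 fell (7.14% each), against 16.7% and 16% of all genes. Their median difference was 0.01. The one that rose was MYCBP2, a large ubiquitin ligase named for its binding to MYC (0.31 ± 0.04), and the one that fell was ACTL6A, a chromatin-remodelling subunit gene (-0.12 ± 0.04), which was not called in the fit over probe sets. ACTL6A had an adjusted p of 0.0496 by limma. It lost its call after median centring and in the fit on each gene's most variable probe set. It also lost its call when any 1 array other than shCtrl replicate 2 was left out. Without shCtrl replicate 2, 1 cofactor gene was called lower, and which gene that was is not given here. Of 14 measured genes of the SIN3 and histone deacetylase corepressor, 3 rose (21.4%) and 2 fell (14.3%), close to the shares of all genes. Their median difference was -0.05. The histone-binding gene RBBP4 (-0.31 ± 0.04) and its relative RBBP7 (-0.13 ± 0.04) fell, and BRMS1 (0.24 ± 0.04), ARID4B (0.22 ± 0.04) and, chosen after its value was seen, the deacetylase gene HDAC2 (0.13 ± 0.04) rose. RBBP7 and HDAC2 were not called in the fit over probe sets. In that fit 1 of 2 RBBP4 probe sets was called lower, and 5 of 6 of BRMS1 and 2 of 5 of ARID4B were called higher. The corepressor core genes SIN3A (-0.06 ± 0.05) and HDAC1 (-0.04 ± 0.03), chosen after their values were seen, did not pass. Of 4 further network genes, 1 rose and 1 fell (25% each). MGA, which pairs with MAX in a repressive complex, rose (0.36 ± 0.04), with 2 of 3 probe sets called. MXD3 fell (-0.23 ± 0.05), with 1 of 3 probe sets called lower, and was not called lower when all were averaged. MYCN and the MLX partner gene MLXIPL, named with their values known, did not pass (-0.08 ± 0.06 and -0.12 ± 0.07). Each had 1 of 4 probe sets called lower.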

How the data were processed

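The authors deposited a log2 value for each probe set of each array, made from Affymetrix PrimeView arrays. RMA, oligo and limma appear in the submitters' processing notes, with neither version nor role. Where RMA made the values, differences at low signal are compressed. Per the labels' protocols, 200 ng of total RNA per sample entered labelling. All 6 columns were mapped to samples by title. Probe sets were named by the platform annotation. Of 49293 probe sets that were not controls, 44988 had 1 symbol, 1832 several and 2473 none listed, and symbols were checked against RefSeq gene identifiers of GRCh38.p14 (0 changed). Each gene was represented by its probe set with the highest mean, giving 18132 genes.

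Differences (shCSF2 minus shCtrl) were tested by limma 3.58.1 (R 4.3.3; lmFit, then eBayes), with Benjamini-Hochberg adjustment over all genes, or over all probe sets that were not controls, and a threshold of 0.05. Errors are moderated standard errors. The members, the 8 gene lists and the tests were chosen with earlier results of these data known. No set test was run, and lists are described by counts and medians. All members were described. From each list the 4 passing genes with the largest difference were named, and others are marked as chosen with their values known. Listed genes that no single-symbol probe set names are not analysed here. Simulated arrays of this design held 18132 genes, with 50 changed by each of 0.3, 0.5, 1 and -1 (log2). Of these, the fit recovered 60%, 82%, 98% and 100%, in that order. The changed genes were a far smaller share than the 32.7% of genes called in the data. The Benjamini-Hochberg cutoff depends on that share, so these percentages do not give the sensitivity of the main fit. Replicate numbers are shared between groups. Deviations of same-numbered arrays correlated with r = 0.03, 0.05 and 0.03, so the numbers were not taken as pairs. Alternatives were filters on dim genes, renewed normalisation (cyclic loess, quantile, median centring), weighted arrays, a robust variance trend, other choices of probe set, a replicate block and leaving out each array. Figures were drawn with matplotlib 3.10.9.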

Additional observations from a re-analysis of the deposited data

How the results depend on the processing

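Of the 10 members, MYC, MXI1, MXD4 and MLX kept their direction and passed in all 16 alternative fits, the 6 that left out 1 array among them. Averaging all probe sets left 1 member called higher, since MAX no longer passed (0.08), and MXD1 no longer passed (-0.01). With the most variable probe set 1 member was called higher and 5 lower, because MAX turned to -0.35 and was called lower. In that fit MYCL turned to 0.030 and MLXIP to 0.11, neither passing. MLXIP was 0.025 with all probe sets averaged, MNT ranged from -0.032 to 0.0066 when 1 array was left out (0.0066 without shCSF2 replicate 3), and FBXW7 from -0.013 to 0.042 (-0.013 without shCSF2 replicate 1). FBXW7 was -0.0083 after quantile normalisation again, and none of these passed. Members called stayed at 2 higher and 4 lower in each fit that left out 1 array. Member probe sets called higher ranged from 5 to 8 in those fits, against 9, with the 5 found without shCSF2 replicate 3, and those called lower from 10 to 12. With the replicate number as a block, 6 member probe sets were called higher and 11 lower, and 2 members higher and 4 lower. MYC-activated genes called higher ranged from 23 to 31 over all alternatives, and those called lower were 5, against 3, above the median expression, with the variance trend and with all probe sets averaged, and 2 to 3 when 1 array was left out. Small counts in other lists moved by over 1.5 times: genes called lower ranged from 1 to 5 (main 2) for the SIN3 and histone deacetylase list, 2 to 4 (2) for MYC turnover, 0 to 2 (1) for MYC cofactors, 1 to 3 (2) for FBXW7 targets and 0 to 2 (1) for further network genes, and MYC cofactors called higher from 1 to 3 (1). The causes were not tested. Of the member probe sets, 2 of MYCL and 2 of MAX had means below 4.20, the lower quartile of the arrays.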
